A study of Mus musculus with 6 samples.

Results

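The respiratory chain of mitochondria is assembled from subunits encoded by 2 genomes. Its genes were taken from the deposited table by symbol: protein-coding genes whose symbols begin with mt-, *Nduf* (without the assembly factors *Ndufaf*), *Uqcr*, *Atp5* or *Cox4* to *Cox8*, together with *Sdha*, *Sdhb*, *Sdhc*, *Sdhd*, *Cycs*, *Cyc1* and the mitochondrial rRNAs *mt-Rnr1* and *mt-Rnr2*. This gave 103 of the 56748 genes listed, 15 in the mitochondrial genome and 88 in the nucleus. RNA was sequenced from CD4 T cells that began as naïve cells, taken by negative selection from spleen and lymph nodes of wild-type C57BL/6 mice aged 6 to 10 weeks (the source label names splenocytes), and were kept for 3 days on bound anti-CD3 with anti-CD28, IL-2, TGF-β and antibodies to IFNγ and IL-4, a mixture that drives differentiation into regulatory T cells (Tregs). Antisense oligonucleotides (ASOs), short synthetic strands that pair with a matching RNA, were in the medium at 10 μM, with a scrambled sequence in 3 libraries and one directed at *Pgam* in 3. The cells were not sorted before lysis, and the libraries were made from polyA RNA.

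Counts per library totalled 17588755, 18032805 and 16231127 with scrambled ASO (replicates 1, 2 and 3) and 16589933, 15860476 and 16803881 under the *Pgam* ASO label. Levels are given as CPM, counts scaled to the effective library total, in replicate order, and a log2 fold change is that of the libraries labelled *Pgam* ASO over those with scrambled ASO, with its standard error (SE). Adjusted p-values come from edgeR's quasi-likelihood test, by the Benjamini-Hochberg method over all genes tested. No source used here says that each library came from its own mouse, so the p-values measure the spread between these samples.

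The inner mitochondrial membrane carries complexes I to IV, which pass electrons from NADH and succinate through coenzyme Q and cytochrome c to oxygen, and complex V, the ATP synthase, which uses the resulting proton gradient. The mitochondrial genome encodes the hydrophobic cores of complexes I, III, IV and V and the rRNAs that translate them, whereas complex II, cytochrome c and all remaining subunits are made from nuclear genes and imported. Heavy-strand mitochondrial genes are transcribed as long shared precursors that begin near the rRNA genes, and Tregs are known for relying on oxidative phosphorylation.

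The *Pgam* label was first checked on the genes it names. *Pgam1*, the phosphoglycerate mutase of most tissues, stood at 599.6, 478 and 707 CPM with scrambled ASO and at 658, 661 and 707 CPM in the libraries labelled *Pgam* ASO. These groups overlapped (log2 fold change 0.18, SE 0.13, adjusted p = 0.331). *Pgam2*, the muscle form, stood at 5.23, 6.75 and 2.85 CPM against 2.98, 2.69 and 2.60 CPM (log2 fold change -0.84, SE 0.31, adjusted p = 0.0854), and its groups also overlapped. It passed without scrambled replicate 3 (log2 fold change -1.11, adjusted p = 0.0144) and with no filter on low counts (adjusted p = 0.0292). In cultures of this kind the paper reports lower PGAM1 protein with *Pgam* ASOs, measured by flow cytometry. RNA counts do not measure protein, so they cannot decide whether the protein was lower in these samples. As neither target passed at the RNA level with all libraries in the filtered table, the treated libraries are named by their label. *Foxp3*, the transcription factor that defines Tregs, fell from 282, 371 and 222 CPM to 89.7, 109 and 131 CPM (log2 fold change -1.41, SE 0.20, adjusted p = 0.00567).

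Markers of the cells that a spleen culture can hold were read beside this. The CD4 T cell list (*Cd3e*, *Cd3g*, *Cd4*, *Cd5*, *Cd28*, *Lck*) summed to 2592, 2768 and 2412 CPM with scrambled ASO and to 2099, 2089.8 and 2190.2 CPM under the *Pgam* label, and 2 of its 6 genes, *Cd5* and *Cd28*, were lower. The B cell list summed to 329, 458 and 222 CPM against 85.3, 119.8 and 149.9 CPM. *Ighm*, its most abundant gene, was lower (log2 fold change -1.58, adjusted p = 0.0282), while the other 5 of its 6 genes did not pass the test. CD8 genes summed to 11.3, 13.5 and 10.8 CPM against 14.6, 10.9 and 15.7 CPM, with *Cd8b1* the more abundant. *Cd8a* was higher (log2 fold change 1.12, adjusted p = 0.0286), whereas *Cd8b1* had overlapping groups and did not pass (log2 fold change -0.20, adjusted p = 0.454). In the NK cell list *Klrb1c* and *Klra8* had no count in any library, and its sum of 52.6, 32.2 and 55.0 CPM against 28.3, 26.9 and 24.1 CPM was almost wholly *Eomes*, which activated T cells also express and which was lower (adjusted p = 0.0214). The 8 myeloid genes summed to 6.08, 5.56 and 2.85 CPM against 6.96, 5.07 and 5.33 CPM, led by *Lyz2*, and the 6 erythroid genes to 2.87, 2.32 and 1.55 CPM against 1.55, 2.12 and 2.49 CPM, led by *Alas2* and with *Hba-a2* at 0. Of these 5 marker calls, that of *Cd28* held with any single library left out, and each of the others was lost without at least 1 library. Without scrambled replicate 1, 2 or 3, 1, 4 and 5 of the calls were kept, and without replicate 1, 2 or 3 of the *Pgam* label 2, 2 and 5. *Ighm* was also not called with no filter on low counts, and the replicate block kept 3 of the 5. The part of these marker differences, or of the fall in *Foxp3*, in the results that follow was not tested, and in bulk RNA fewer cells of one type and less RNA per cell cannot be told apart.

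Across the 14936 genes tested, edgeR's test put 8.03% higher and 9.15% lower at an adjusted p under 0.05, and the median log2 fold change was -0.01. Against that background the mitochondrial and nuclear members had medians on opposite sides of zero. Of the 15 mitochondrial members 14 were tested, 9 were lower and 1 was higher, with a median log2 fold change of -0.64. Of the 88 nuclear members 82 were tested, and 8 were higher and 0 lower by edgeR (1 lower by DESeq2), with a median of 0.24. The share called higher is close to the background. Nuclear members above and below zero numbered 71 and 11, where 49.4% of all tested genes were above. Groups without overlap were counted too: 36 of the 82 nuclear members had all libraries labelled *Pgam* ASO above all scrambled ones, against 19.6% of tested genes, and 10 of the 14 mitochondrial members had them all below, against 19.8%.

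**Figure D1:**
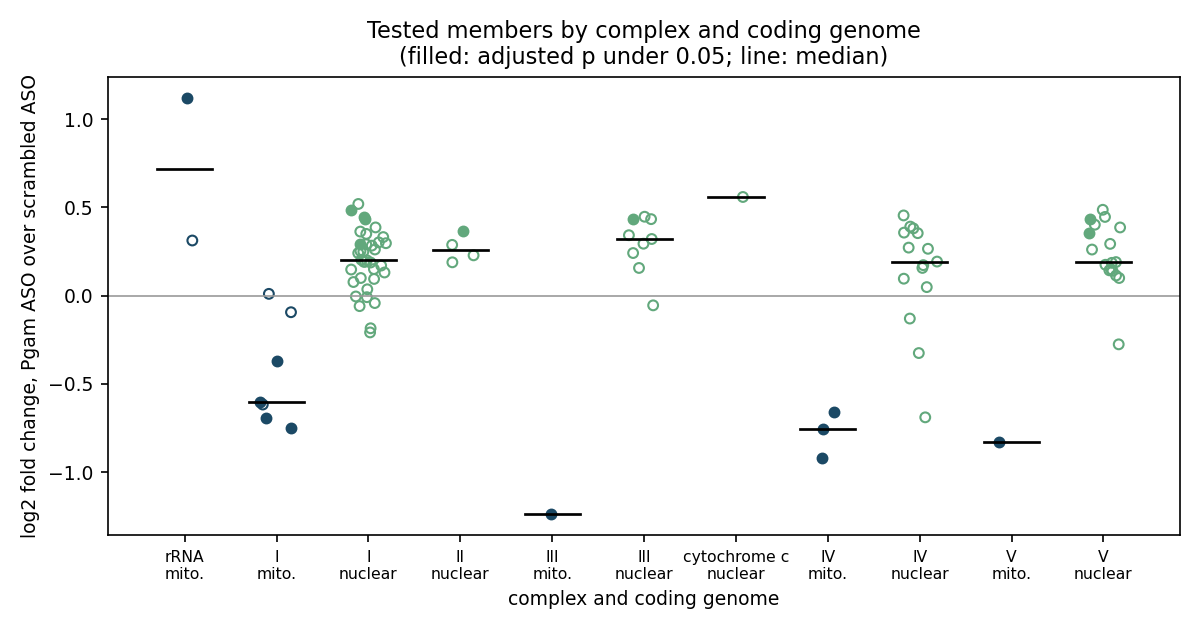
Log2 fold change (vertical axis, libraries labelled Pgam ASO over scrambled ASO) of each tested member, by complex and coding genome. Points are genes, filled at an adjusted p under 0.05, and lines are medians; mitochondrial mRNAs lie at or below 0.01 in complexes I, III, IV and V, while the nuclear medians of the same complexes lie between 0.19 and 0.32.

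Before single mitochondrial genes are read, the reads that they share with the nucleus have to be set out. Nuclear chromosomes hold old copies of mitochondrial DNA, and a run of them on chromosome 1 spans 7 annotated pseudogenes. Stretches of 31 bases were compared between all annotated transcripts of GENCODE M21 on GRCm38. In 5 mitochondrial mRNAs over 95% of the stretches also occurred in other genes: *mt-Co2* (100%), *mt-Co3* (99.9%), *mt-Atp6* (99.5%), *mt-Nd4l* (98.9%) and *mt-Nd3* (98.1%). *mt-Co1* and *mt-Nd4* shared 63.9% and 62.8%, and the other mitochondrial members at most 16.8%. The annotated copy of *mt-Co2*, *Gm28661* on chromosome 1, is identical over all of its 681 bases and lacks only the last 3 of the 684 bases of the mitochondrial gene. Its end on chrM:7666-7696 (GRCm38, heavy-strand gene, plus strand) is shown with those bases, the stop codon, in capitals.

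mt-Co2 end: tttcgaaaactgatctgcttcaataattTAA

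Reads from these genes can be assigned to either place, so their counts are uncertain. How such reads were counted or dropped is not described in the sources used here, beyond the name of Kallisto. Among mitochondrial mRNAs the 5 held a median of 51.0 CPM per kilobase with scrambled ASO (21.4 to 71.6), against a median of 981 for the other 8, and their levels are not compared with those of the rest. With the counts of their copies added, the 5 held 31.6 to 120.1 CPM per kilobase. Whether another counting step also lowered these counts was not tested. *mt-Atp8* is the exception among those 8, at 1.51 CPM per kilobase with 7.47% of its stretches shared. It had 5, 5 and 6 counts with scrambled ASO and 3, 3 and 1 under the *Pgam* label, too few to be tested, and this count is as uncertain as those of the 5. Its reading frame runs into that of *mt-Atp6*, so that 43 bases at chrM:7927-7969 (GRCm38, plus strand) belong to both, shown with the first codon of *mt-Atp6* in capitals.

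mt-Atp8 and mt-Atp6: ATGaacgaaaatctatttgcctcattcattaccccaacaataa

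**Figure D2:**
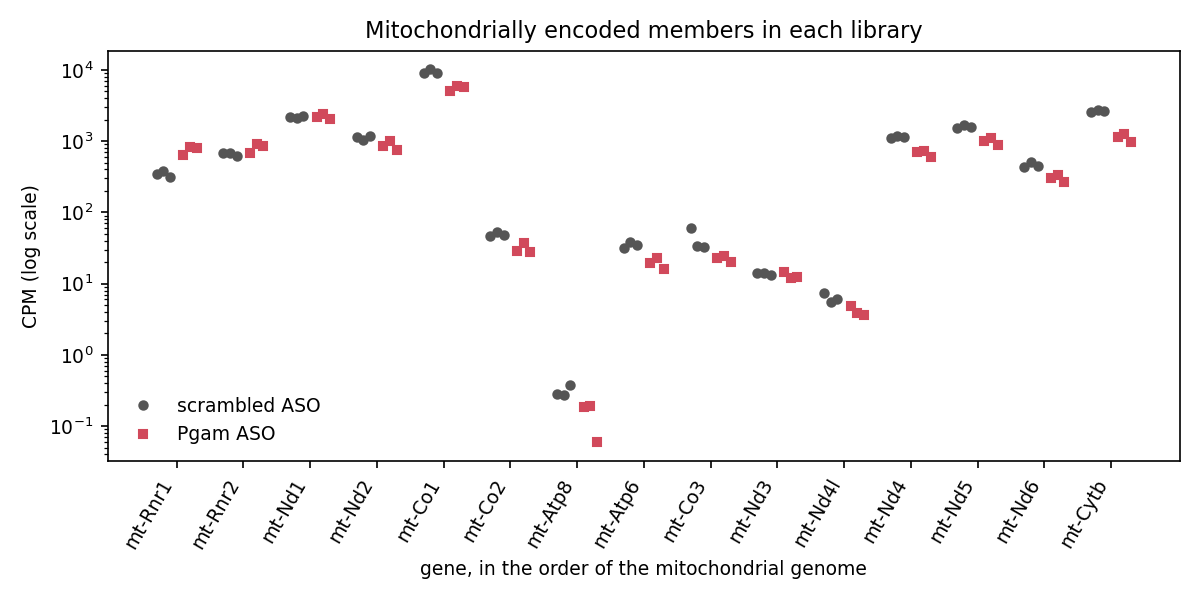
CPM (log scale) of the 15 mitochondrial members in each library, in genome order; circles are scrambled ASO and squares the libraries labelled Pgam ASO, replicates 1 to 3 from left to right. mt-Rnr1 lies higher and mt-Cytb lower under the Pgam label, and the genes from mt-Co2 to mt-Nd4l lie far below their neighbours.

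The small mitochondrial rRNA, *mt-Rnr1* (chrM:70-1024), went against the mRNAs. It stood at 343, 382 and 316 CPM with scrambled ASO and at 629.5, 826 and 809 CPM under the *Pgam* label. All treated libraries were above all scrambled ones, and the gene was 2.18-fold higher (log2 fold change 1.12, SE 0.12, adjusted p = 0.000768). The large rRNA, *mt-Rnr2* (chrM:1094-2675), stood at 683, 669.8 and 622 CPM against 689, 914 and 849 CPM. Its groups were only just apart, between 683 and 689 CPM, and it did not pass the test (log2 fold change 0.31, SE 0.11, adjusted p = 0.0683). Without replicate 1 of the *Pgam* label it passed (adjusted p = 0.0337), and it also passed with DESeq2 (adjusted p = 0.0412) and without a filter on low counts (adjusted p = 0.0101). In polyA libraries these are counts of the rRNA that was captured with the polyadenylated RNA, which need not be in proportion to the whole rRNA.

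The 7 mitochondrial subunits of complex I form its proton-pumping membrane arm, and 4 of them were lower. *mt-Nd1*, the first mRNA after the rRNAs, stood at 2164, 2116 and 2269 CPM against 2178, 2406 and 2009.6 CPM. Its groups overlapped throughout (log2 fold change 0.01, SE 0.09, adjusted p = 0.949), and its sign depended on the setting. It was -0.0258 with library size alone as the scaling, -0.0014 with at least 10 counts in every library, and -0.0005, -0.0132 and -0.0598 without scrambled replicate 1, scrambled replicate 2 and replicate 2 of the *Pgam* label. *mt-Nd2* stood at 1126, 1052 and 1164 CPM against 846, 995 and 744 CPM, with no overlap, and fell by 0.37 on the log2 scale (SE 0.11, adjusted p = 0.0415). That call was lost without scrambled replicate 1 (adjusted p = 0.125) or 3 (0.0655) and without replicate 1 (0.126), 2 (0.0553) or 3 (0.0957) of the *Pgam* label. It was also lost with the replicate block (adjusted p = 0.0873). Over the alternatives the log2 fold change of *mt-Nd2* lay between -0.49 and -0.27. *mt-Nd4* dropped further, from 1105, 1175 and 1124 CPM to 702, 719.8 and 605 CPM (log2 fold change -0.75, SE 0.09, adjusted p = 0.00131).

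*mt-Nd5* behaved much like it, with 1524, 1687 and 1584 CPM against 995, 1096 and 877 CPM (log2 fold change -0.69, SE 0.10, adjusted p = 0.00265). *mt-Nd6* is the only protein gene on the light strand, and it overlaps the end of *mt-Nd5* on the other strand. It stood at 431, 503 and 452 CPM against 306, 339 and 267 CPM, and was lower too (log2 fold change -0.60, SE 0.10, adjusted p = 0.00716). No source used here says whether counting kept the strand, so reads of heavy-strand RNA across *mt-Nd6* cannot be told apart from its own. *mt-Nd3* and *mt-Nd4l*, which share nearly all stretches with nuclear copies, did not pass the test. *mt-Nd3* stood at 14.2, 13.9 and 13.4 CPM against 14.5, 11.9 and 12.4 CPM (log2 fold change -0.09, SE 0.13, adjusted p = 0.655). *mt-Nd4l* stood at 7.43, 5.56 and 6.07 CPM against 4.91, 3.85 and 3.67 CPM, with no overlap (log2 fold change -0.62, SE 0.22, adjusted p = 0.0743).

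*mt-Cytb* (chrM:14145-15288), which encodes cytochrome b, the single mitochondrial subunit of complex III, had the largest fall of the 12 mitochondrial mRNAs tested. It stood at 2569, 2722 and 2618 CPM with scrambled ASO and at 1148, 1238 and 968 CPM under the *Pgam* label. The groups were far apart, and scrambled libraries held 2.36 times as much (log2 fold change -1.24, SE 0.10, adjusted p = 0.000252).

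The catalytic core of complex IV, cytochrome c oxidase, is made of 3 mitochondrial subunits, and all 3 were lower. *mt-Co1*, which binds the oxygen-reducing centre, had 9098, 10138 and 9094 CPM against 5093, 5938 and 5780.3 CPM (log2 fold change -0.75, SE 0.09, adjusted p = 0.00116). *mt-Co2*, which receives electrons from cytochrome c, had 47.0, 52.4 and 47.6 CPM against 28.6, 36.6 and 28.0 CPM (log2 fold change -0.66, SE 0.12, adjusted p = 0.00914). *mt-Co3* had 60.6, 33.6 and 32.3 CPM against 22.6, 24.1 and 20.4 CPM (log2 fold change -0.92, SE 0.23, adjusted p = 0.034). In *mt-Co3* scrambled replicate 1 stood well above the other two, and without it the log2 fold change was -0.56 (adjusted p = 0.0493). The call of *mt-Co3* was lost without scrambled replicate 2 (adjusted p = 0.0514) and without replicate 1 (0.105), 2 (0.105) or 3 (0.0727) of the *Pgam* label. In complex V, *mt-Atp6*, the subunit that lines the proton path, had 31.3, 37.9 and 35.1 CPM against 19.6, 22.7 and 16.3 CPM and was lower (log2 fold change -0.83, SE 0.14, adjusted p = 0.00596).

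Adding to each member the counts of the genes that share at least 10% of its stretches gave another reading of the log2 fold changes, which still depends on how shared reads were counted. The log2 fold change was then -0.63 for *mt-Co2* (adjusted p = 0.00723), -0.94 for *mt-Atp6* (0.00226) and -0.86 for *mt-Co3* (0.00953). *mt-Nd4l* passed the test in this form (-0.65, adjusted p = 0.0307), so that 10 mitochondrial members were lower. For *mt-Nd3* the sum gave -0.65 (adjusted p = 0.188), a value that rested on 364 counts of its copy *Gm28438* in scrambled replicate 1, where the other libraries had 12 to 39. Of the 8 mRNAs at or under 95% shared, 7 were tested and 6 were lower, with a median of -0.69.

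Among mRNAs with at most 95% of stretches shared, levels per length had a clear order with scrambled ASO. *mt-Co1* was highest at 6112 CPM per kilobase (SD 389, n = 3). *mt-Cytb* (2304, SD 68.5) and *mt-Nd1* (2281, SD 81.6) came next and did not differ beyond their spread, followed by *mt-Nd2* (1073, SD 54.8). *mt-Nd6* (889, SD 71.3), *mt-Nd5* (876, SD 45.1) and *mt-Nd4* (823, SD 26.0) lay within 1 SD of *mt-Nd6* and are not told apart from it. Under the *Pgam* label this order was different, with *mt-Nd1* at 2297 CPM per kilobase and *mt-Cytb* at 977.

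Along the heavy strand from the start of *mt-Rnr1*, the log2 fold changes of rRNAs and mRNAs were mostly lower with distance. The 8 tested heavy-strand rRNAs and mRNAs with at most 95% of stretches shared (*mt-Atp8* was not tested) were at 1.12 (*mt-Rnr1*), 0.31 (*mt-Rnr2*), 0.01 (*mt-Nd1*), -0.37 (*mt-Nd2*), -0.75 (*mt-Co1*), -0.75 (*mt-Nd4*), -0.69 (*mt-Nd5*) and -1.24 (*mt-Cytb*). Over these 8 genes the correlation of log2 fold change with distance was r = -0.867 and rho = -0.905, and over all 13 tested heavy-strand rRNAs and mRNAs r = -0.81 and rho = -0.67. Taking 1 treated library at a time against the scrambled mean, which those values share, rho over the 8 genes was -0.905, -0.905 and -0.976. With the rRNAs left out, r was -0.85 and rho -0.771 over the 6 tested mRNAs at most 95% shared, and r -0.645 and rho -0.45 over all 11 tested mRNAs. Of the heavy-strand tRNAs, which are not members, 6 were tested and did not pass, with log2 fold changes from -0.72 to -0.23. Among them *mt-Tl1*, between *mt-Rnr2* and *mt-Nd1*, was at -0.33 and *mt-Tl2*, before *mt-Nd5*, at -0.23. *mt-Tt*, beyond *mt-Cytb*, had too few counts to be tested, 5, 3 and 5 with scrambled ASO and 13, 5 and 13 under the *Pgam* label. The correlations are descriptions across neighbouring genes of a single genome, measured in the same 6 libraries and transcribed together, and not independent points.

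**Figure D3:**
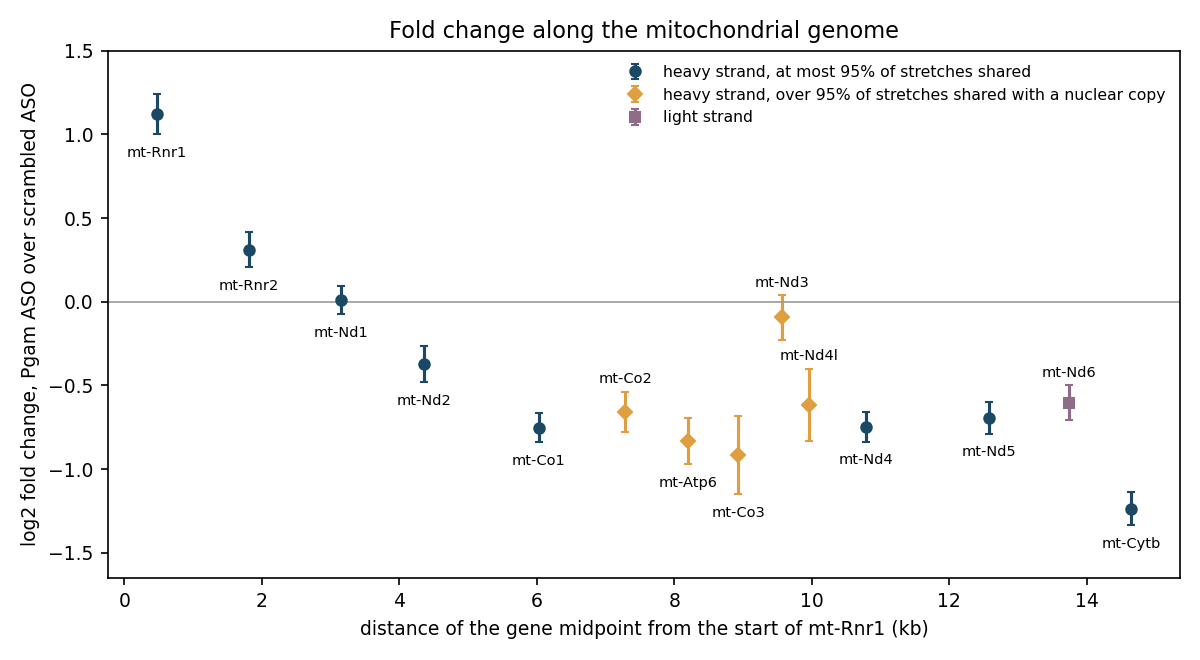
Log2 fold change (vertical axis, libraries labelled Pgam ASO over scrambled ASO) against the distance of each rRNA or mRNA gene's midpoint from the start of mt-Rnr1 (kilobases); bars are the standard error. The values run from 1.12 at mt-Rnr1 to -1.24 at mt-Cytb, and mt-Nd3 at -0.09 stands above its neighbours.

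The nuclear members had a smaller median on the other side of zero, 0.24, and 74 of the 82 did not pass the test. Their fitted log2 fold changes ran from -0.69 (*Cox7a1*, near 2 CPM) to 0.56 (*Cycs*), and 40 of the 82 had an unadjusted p under 0.05, as did 34.9% of all tested genes. The median member stood, on the log2 scale, -0.0021, -0.19 and 0.16 from the scrambled mean in scrambled replicates 1, 2 and 3, and 0.27, 0.26 and 0.19 above it in the libraries labelled *Pgam* ASO. Scrambled replicate 3 was thus near the treated libraries, with 79 of the 82 members above the scrambled mean, and replicate 2 was low, with 5.

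Among the 8 that passed, 4 belong to complex I. *Ndufa8* (chr2:36036326-36049406), an accessory subunit of its membrane arm, stood at 50.4, 44.0 and 56.1 CPM with scrambled ASO and at 68.7, 65.1 and 69.4 CPM under the *Pgam* label (log2 fold change 0.43, SE 0.10, adjusted p = 0.022). *Ndufa5* (chr6:24518666-24528013) stood at 26.6, 21.7 and 26.0 CPM against 38.6, 35.3 and 29.9 CPM (log2 fold change 0.48, SE 0.13, adjusted p = 0.0318). *Ndufv1* (chr19:4007384-4012806), the core subunit that binds NADH, stood at 74.4, 67.7 and 79.1 CPM against 92.7, 90.9 and 87.4 CPM (log2 fold change 0.29, SE 0.09, adjusted p = 0.0429). None of these 3 had overlapping groups. *Ndufb6* (chr4:40270591-40279421) had the highest adjusted p of the 8, at 33.9, 26.6 and 38.8 CPM against 47.5, 45.2 and 42.2 CPM (log2 fold change 0.44, SE 0.13, adjusted p = 0.047), and was not called with library size alone as the scaling (adjusted p = 0.0511). It also shared 34.4% of its stretches with other genes, so its count is uncertain.

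The other 4 lie in complexes II, III and V. *Sdhb* (chr4:140961203-140979193), the iron-sulfur subunit of succinate dehydrogenase, stood at 99.3, 88.0 and 105 CPM against 124, 128 and 126 CPM (log2 fold change 0.37, SE 0.09, adjusted p = 0.023). *Cyc1* (chr15:76343523-76346260), cytochrome c1 of complex III, stood at 136, 114 and 156 CPM against 203, 176 and 169 CPM (log2 fold change 0.43, SE 0.12, adjusted p = 0.0366). *Atp5a1* and *Atp5b* encode the subunits that form the catalytic head of the ATP synthase. *Atp5a1* stood at 835, 707 and 885 CPM against 1087, 1039 and 977 CPM (log2 fold change 0.35, SE 0.10, adjusted p = 0.0349). *Atp5b* (chr10:128083273-128090391) stood at 1037, 865 and 1198 CPM against 1509, 1415 and 1256 CPM (log2 fold change 0.43, SE 0.12, adjusted p = 0.0372). In each of the 8 genes the libraries labelled *Pgam* ASO were above all scrambled ones, as the plot of their CPM over the scrambled mean shows.

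**Figure D4:**
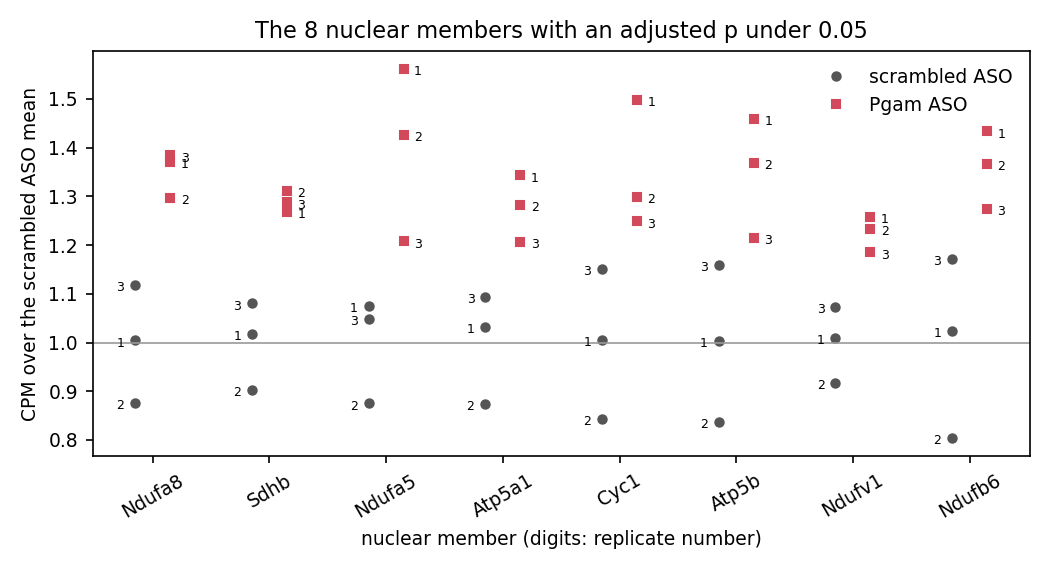
CPM of the 8 nuclear members with an adjusted p under 0.05, divided by the gene's mean over the scrambled libraries (vertical axis, no unit); circles are scrambled ASO, squares the libraries labelled Pgam ASO, and the digits replicate numbers. Squares lie above circles in every gene, and scrambled replicate 2 is lowest in each.

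Whether these nuclear members were called depended on the libraries in the fit. Without scrambled replicate 1, 2 or 3, the nuclear members called higher numbered 0, 1 and 40, where 1.45%, 3.25% and 11.0% of all genes were called higher. Without replicate 1, 2 or 3 of the *Pgam* label they numbered 0, 0 and 14, where the shares of all genes were 2.1%, 1.03% and 10.2%. The 8 named above were all among the 40 and among the 14, and 1 of them, *Ndufa8*, was called without scrambled replicate 2. The log2 fold changes of all 8 stayed positive in each of these fits. Those of *Ndufa8* and *Atp5b* were 0.43 and 0.43 without scrambled replicate 1, and 0.35 and 0.32 without scrambled replicate 2. The median of the nuclear members stayed positive in each of these fits, between 0.15 and 0.34. DESeq2 called 19 nuclear members higher and 1 lower, against 10.3% and 11.1% of all genes. A fit without a filter on low counts called 29 and 1, against 6.43% and 6.66%, so the count depends on the tool and filter while the direction did not change. The mitochondrial members called lower numbered 7 or 8 with a library left out, where calls over all genes in both directions ran from 391 to 3484.

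By complex, the nuclear members of complex I had a median log2 fold change of 0.20 over 36 genes, 30 of them above zero. The 7 nuclear core subunits, which hold the flavin and iron-sulfur centres, had a median of 0.10, with *Ndufv1* called, and the 29 accessory subunits one of 0.25, with *Ndufa5*, *Ndufa8* and *Ndufb6* called. *Ndufa2* had the highest level per length among these nuclear members, at 83.9 CPM per kilobase (SD 22.2, n = 3), within the spread of *Ndufb11* at 72.7. *Ndufa2* did not pass the test (log2 fold change 0.26, adjusted p = 0.304).

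Complex II has no mitochondrial subunit. Beside *Sdhb*, the flavoprotein *Sdha* stood at 233, 227 and 242 CPM against 277, 280.1 and 265 CPM (log2 fold change 0.23, SE 0.08, adjusted p = 0.0634). The membrane anchor *Sdhd* stood at 107, 92.4 and 121 CPM against 133, 134 and 125 CPM (log2 fold change 0.29, SE 0.10, adjusted p = 0.0787). Neither had overlapping groups. The other anchor, *Sdhc*, stood at 65.0, 64.1 and 78.9 CPM against 80.4, 85.0 and 71.7 CPM with overlap (log2 fold change 0.19, SE 0.11, adjusted p = 0.239). The median of the 4 was 0.26.

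Complex III had the highest nuclear median of the 5 complexes, 0.32 over 9 genes, of which 8 were above zero and *Cyc1* was called. *Uqcrfs1*, the Rieske iron-sulfur protein, had a log2 fold change of 0.32 (adjusted p = 0.0863). It was the highest nuclear member per length at 116 CPM per kilobase (SD 17.8), within the spread of *Uqcr10* at 103.9 (SD 16.5). *Cycs*, the mobile cytochrome c that carries electrons to complex IV, stood at 98.4, 76.7 and 120.3 CPM against 167, 150.5 and 117 CPM. Replicate 3 of each label overlapped, and the gene did not pass the test (log2 fold change 0.56, SE 0.17, adjusted p = 0.0559). It passed without scrambled replicate 3 (adjusted p = 0.0159) or without replicate 3 of the *Pgam* label (0.0197), and with DESeq2 (0.0105) or no filter (1.99e-06). As 29.4% of its stretches occur in other genes, its count is uncertain.

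Of the nuclear members of complex IV, 0 passed edgeR's test, and their median was 0.19. At an unadjusted p under 0.05 there were 8 of the 15 tested, against 34.9% of all genes, and DESeq2 called 2 higher and 1 lower, which is near its shares of all genes. This complex has tissue-specific subunit pairs, and the ubiquitous form was the abundant one in each. *Cox4i1* held 170.3 CPM per kilobase against 1.95 for *Cox4i2*, *Cox6b1* 158 against 4.25 for *Cox6b2*, and *Cox8a* 227 where *Cox8b* had 2, 3 and 4 counts and 0, 3 and 0, and *Cox8c* none. *Cox6a1* was the highest nuclear member of the complex at 260.4 CPM per kilobase (SD 56.9), within the spread of *Cox8a* (SD 46.7). *Cox6a1* stood at 175, 147 and 226 CPM against 251, 232 and 236 CPM (log2 fold change 0.39, SE 0.14, adjusted p = 0.0726). Its heart and muscle counterpart *Cox6a2* had no count. *Ndufa4* (log2 fold change 0.27, adjusted p = 0.0879) was likewise abundant where *Ndufa4l2* had at most 2 counts in a library. *Cox7b2* was at 0 throughout.

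The *Cox7a* genes went different ways. *Cox7a2* had a log2 fold change of 0.27 (adjusted p = 0.13) and the low muscle form *Cox7a1* one of -0.69 (adjusted p = 0.14). *Cox7a2l*, a factor that joins complexes III and IV into supercomplexes, stood at 151, 166 and 151 CPM against 109.7, 122 and 142 CPM. It was the one abundant nuclear member with all treated libraries below the scrambled ones (log2 fold change -0.33, SE 0.10, adjusted p = 0.055). It passed as lower with DESeq2 (adjusted p = 0.039), without a filter (0.0196) and without replicate 3 of the *Pgam* label (0.0173). Of the remaining pairs, *Cox4i1*, *Cox4i2*, *Cox6b1*, *Cox6b2* and *Cox8a* had log2 fold changes of 0.16, 0.38, 0.19, -0.13 and 0.36, and did not pass. The value of *Cox6b2* was 0.0193 without scrambled replicate 3.

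In complex V the 5 subunits of the catalytic head and its stalk had a median of 0.35 and no overlapping groups, and the other 12 tested members one of 0.17. The c-subunit ring is encoded by *Atp5g1*, *Atp5g2* and *Atp5g3*, whose mature proteins are alike. Their log2 fold changes were 0.45 (adjusted p = 0.0616), 0.15 (0.263) and 0.40 (0.0592). *Atp5g3* was highest per length of these, at 93.3 CPM per kilobase (SD 17.6), within the spread of *Atp5g2* at 78.1 (SD 7.45). *Atp5g1* was at 13.2, and 40.2% of the stretches of *Atp5g2* were shared with other genes. *Atp5a1* led the complex at 258 CPM per kilobase (SD 29.3), within the spread of *Atp5b* at 244 (SD 39.3). A further gene identifier listed as *Atp5o* was at 0 in every library. Which nuclear gene is highest per length depends on the length used: with mean transcript length in place of the union of exons, 1 of 6 complexes or carriers kept its gene.

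Setting the 2 genomes against each other within complexes used the sum of mitochondrial mRNA CPM over the sum of nuclear CPM in each library. For complexes I, III, IV and V together, mitochondrial mRNAs summed to 18178, 19535 and 18439 CPM with scrambled ASO and to 11358, 12831 and 11331 CPM under the *Pgam* label, and nuclear members to 7960.1, 6989 and 8935 CPM against 9935, 9569 and 9136 CPM. The ratio was 2.28, 2.80 and 2.06 against 1.14, 1.34 and 1.24, a difference of -0.93 on the log2 scale, with no overlap. It was 3.37, 3.85 and 3.08 against 2.28, 2.56 and 2.12 for complex I (log2 difference -0.56). For complex IV it was 6.21, 7.63 and 5.40 against 2.92, 3.49 and 3.42 (-0.96). The mitochondrial side of complex IV was almost wholly *mt-Co1*, at a mean of 9443 of 9535 CPM with scrambled ASO. The counts of *mt-Co2* and *mt-Co3* are uncertain, and *mt-Co1* shared 63.9% of its stretches with other genes. The widest difference was in complex III, at 2.68, 3.31 and 2.47 against 0.942, 1.09 and 0.896 (-1.52), where the mitochondrial side is *mt-Cytb* alone. Complex V gave -1.17, but its mitochondrial side rests on *mt-Atp6* and *mt-Atp8*, whose counts are uncertain. Of all counts, mitochondrial mRNAs took 1.84%, 2.01% and 1.83% against 1.10%, 1.26% and 1.14%, and the nuclear members 0.865%, 0.774% and 0.955% against 1.04%, 1.02% and 0.990%.

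**Figure D5:**
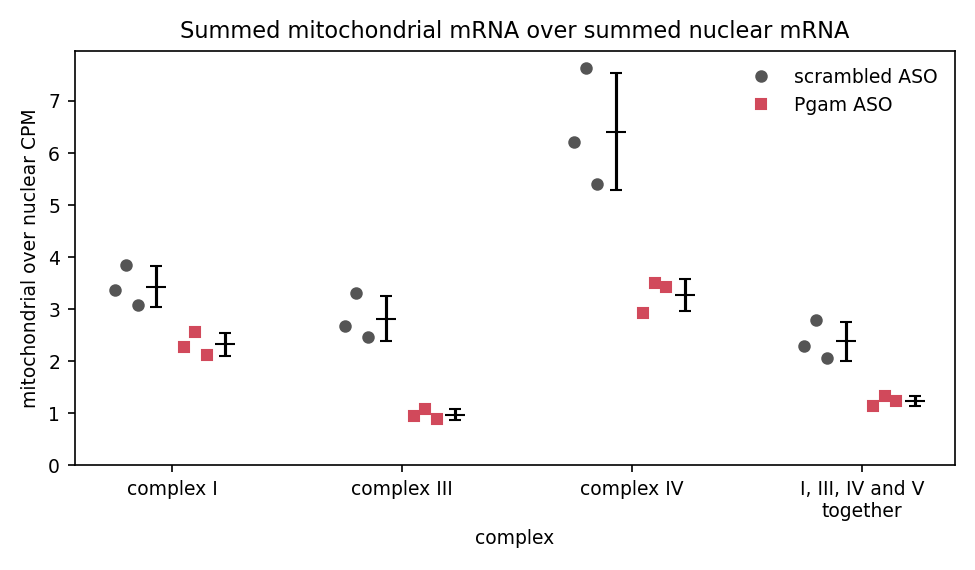
Summed CPM of mitochondrial mRNAs over summed CPM of nuclear members (vertical axis, no unit) in each library, by complex; circles are scrambled ASO, squares the libraries labelled Pgam ASO, and bars the mean and SD of 3 libraries. In complex III the ratio is 2.47 to 3.31 with scrambled ASO and 0.896 to 1.09 under the Pgam label.

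Genes that work on the chain were read from lists. Their calls stand beside 8.03% higher and 9.15% lower among all genes tested, and no list was tested as a set. Of 20 genes for mitochondrial transcription and mRNA stability 19 were found and tested (*Fastkd4* was not matched by symbol), 2 were higher and 1 lower, with a median of 0.07. *Lrpprc*, whose protein binds and stabilizes mitochondrial mRNAs, was higher at 96.6, 82.3 and 97.1 CPM against 131, 122 and 109 CPM (log2 fold change 0.39, SE 0.10, adjusted p = 0.029). A link to the levels of those mRNAs, most of which were lower, was not tested. *Fastkd3*, of a family of mitochondrial RNA-binding proteins, was also higher (log2 fold change 0.44, adjusted p = 0.0454), and *Polg2*, the accessory subunit of the mitochondrial DNA polymerase, was lower (log2 fold change -0.71, adjusted p = 0.0236). The RNA polymerase *Polrmt* and the factor *Tfam*, which start mitochondrial transcription, had values of 0.13 (adjusted p = 0.432) and 0.07 (adjusted p = 0.597).

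Among 43 assembly factors 41 were tested, 2 were higher and 1 lower, with a median of 0.10. *Cox18*, which inserts part of *mt-Co2*'s protein into the membrane, and *Coa7* were higher (log2 fold changes 0.53 and 0.54, adjusted p = 0.0252 and 0.0334), and the copper chaperone *Cox17* was lower (-0.41, adjusted p = 0.0484). Of 10 regulators of nuclear subunit genes 9 were tested and 1 was higher, with a median of 0.06. *Pprc1*, a coactivator related to PGC-1α, was higher at 108, 82.5 and 101 CPM against 186, 144 and 119 CPM (log2 fold change 0.62, SE 0.16, adjusted p = 0.0321), *Nrf1* and *Gabpa* did not pass, and *Ppargc1a* had no count. In the list of 17 carriers and coenzyme Q enzymes 2 were higher and 1 lower, and the median was 0.30. The ADP/ATP carriers *Slc25a4* and *Slc25a5*, which exchange the product of complex V, were higher (log2 fold changes 0.36 and 0.38, adjusted p = 0.0359 and 0.045), and *Coq8a*, a kinase-like protein of coenzyme Q synthesis, was lower (-1.29, adjusted p = 0.0116). Each of the 10 genes called in these lists, named after their values were seen, lost its call without at least 1 library. Without scrambled replicate 1, 2 or 3, 1, 1 and 8 of the 10 were kept, and without replicate 1, 2 or 3 of the *Pgam* label 1, 0 and 9. The replicate block kept 3 of the 10. RLE scaling and library size alone kept 9 each, without *Cox17* (adjusted p = 0.0503) and *Fastkd3* (adjusted p = 0.0502), and the other alternatives kept all 10.

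Nuclear subunit genes are known to share promoter motifs, which the symbol rule did not use. RefSeq promoters (GRCm38.p6, 250 bases before to 50 after each start) were matched by symbol for 68 of 87 nuclear symbols and searched on both strands. The letters GCGCATGCG, bound by NRF1, occurred in 9 of them (13.2%), against 1.95% of 27025 genes. The ETS letters CCGGAAG, which GABP binds, occurred in 16 (23.5% against 9.93%), and the YY1 letters AAGATGGCG in 7 (10.3% against 1.64%). Of the members with each motif, 1 of 9, 2 of 16 and 0 of 7 were called higher, beside 8 of 82 nuclear members tested and 8.03% of all genes tested. *Cycs* and *Cox6a1* are shown as abundant genes with the NRF1 letters, in capitals where they read on the other strand: 100 bases before the start of *Cycs* (chr6:50566570-50566669, minus strand) and, for *Cox6a1*, a window of 100 bases (chr5:115349059-115349158, minus strand) whose capitals lie 161 to 153 bases before its start. In *Cox6a1* the letters also read on the printed strand, beginning 1 base before the capitals. A match is a description of these letters only.

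Cycs: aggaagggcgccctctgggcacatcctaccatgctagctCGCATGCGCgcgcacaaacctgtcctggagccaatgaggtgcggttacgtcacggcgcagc

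Cox6a1: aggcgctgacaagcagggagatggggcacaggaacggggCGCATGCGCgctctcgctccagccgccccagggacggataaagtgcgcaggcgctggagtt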

How the data were processed

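What the authors deposited is a single table with genes against libraries, taken here as estimated counts because the study's methods and the submitters' processing notes name Kallisto. Its version, the annotation, the step from transcripts to genes and any other counting step are not given in the sources used here. Its values were already whole numbers, not normalized, and GRCm38 comes from the submitters' processing notes. Symbols and positions were taken from GENCODE M21 for 52073 of 56748 genes. The fit used edgeR 4.0.16 under R 4.3.3 (filterByExpr, TMM scaling, robust quasi-likelihood test, two-sided, Benjamini-Hochberg over 14936 genes, threshold 0.05), and tables and plots Python 3.11.15, pandas 2.3.3 and matplotlib 3.10.9. CPM use TMM-scaled totals, and lengths are unions of exons. For each pair of libraries a chi-square of the counts was divided by its degrees of freedom (6.75 to 23.6 within a label), and no pair was counted as 1 library. The procedure was tested on simulated data. Alternatives were DESeq2 1.42.0, RLE factors, library size alone, no filter, at least 10 counts in every library, a replicate block, mitochondrial genes and copies left out of totals, genes summed with those sharing 31-base stretches, and each library left out. Genes named were all mitochondrial members, nuclear members with an adjusted p under 0.05, complex II, *Cycs*, *Cyc1*, the highest nuclear member per length in each complex, subunit paralogs, *Pgam1*, *Pgam2* and *Foxp3*. Other genes, *Gm28438* and *Gm28661* among them, were named after their values were seen. Members and lists were chosen with earlier results of these data known. Of the marker genes, 1 has its own values left out of the text.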

Additional observations from a re-analysis of the deposited data

How the results depend on the processing

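Over the alternatives, the median of the mitochondrial members lay between -0.73 and -0.56, that of the nuclear members between 0.15 and 0.34, and the log2 difference of the summed ratio between -1.03 and -0.81. Mitochondrial members called lower numbered 6 to 10, the 6 with genes over 95% shared left out, an alternative chosen after seeing the data (median then -0.60, ratio -0.93). All 9 mitochondrial calls of the report were kept with DESeq2, RLE factors, library size alone, no filter, at least 10 counts, mitochondrial genes out of the totals and summed copies. With DESeq2, 2 mitochondrial members were higher, 1 nuclear member was lower and 19 were higher, and with no filter these were 2, 1 and 29. With the replicate block 1235 genes were called in place of 2565, 8 mitochondrial members were lower and 1 nuclear member was higher. Deviations of equal replicate numbers correlated at 0.05, -0.03 and -0.24 across genes. Not every library correlated best with its own number. With 3 libraries per label these correlations cannot decide whether equal numbers share a mouse, which no source used here states. With 1 library left out, all calls ran from 391 to 3484, mitochondrial members higher from 1 to 2, nuclear members higher from 0 to 40 and lower from 0 to 1. The value of *mt-Nd1*, never past the threshold, was -0.0258 with library size alone, -0.0014 with at least 10 counts and -0.0598 to 0.0763 with a library left out (-0.0005 and -0.0132 among them), and that of *Cox6b2* -0.3934 to 0.0193 with a library left out. The cause of these shifts was not tested, beyond fewer libraries in the fits that leave one out. *Cox8b* and *Ndufa4l2* had too few counts at this depth to be tested, as had *mt-Atp8*, whose count is uncertain. Over all alternatives, values of single named members were on the same side of the threshold 488 times, lost a call 49 times, gained one 31 times and changed sign 6 times.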

Other observations

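The mitochondrial genome also encodes 22 tRNAs, which punctuate its precursor transcripts. Of these, 11 were tested and 1 was higher by edgeR's test (8.03% of all genes tested were), and 2 had no count. The higher one was *mt-Tp*, a light-strand gene beyond the end of *mt-Cytb*, with 312, 364 and 352 counts with scrambled ASO and 807, 938 and 1035 counts in the libraries labelled *Pgam* ASO (log2 fold change 1.54, SE 0.12, adjusted p = 0.000251). It was named after its values were seen. As counting is not stated to use strand, reads of heavy-strand RNA across *mt-Tp* cannot be told apart from its own.

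Annotated nuclear copies of mitochondrial mRNA genes were read for 8 symbols chosen by hand, which need not be all that exist. All 8 were tested and 4 were lower, beside 9.15% of all genes tested: *Gm10925* (log2 fold change -1.05, adjusted p = 0.00211), *Gm28661* (-0.58, adjusted p = 0.0145), *Gm28437* (-0.75, adjusted p = 0.00738) and *Gm28439* (-0.90, adjusted p = 0.0262). These values stand beside -0.83, -0.66, -0.92 and -0.75 for the mitochondrial genes they copy, with which they share reads.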
